A study of Mus musculus with 2 samples.

Results

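Genes of the B cell receptor were followed in dendritic cells (DCs) of skin-draining lymph nodes: Cd79a, Cd79b, Ighm, Igkc, Ms4a1 and Pax5, with Siglech, a gene of plasmacytoid DCs, as the last member. These 7 genes, all listed among 18049 genes, were chosen because Cd79b had been seen in more CD301b-lo than CD301b-hi cDC2 droplets of these libraries, so their values by class are descriptions, and the question asked of them was which genes went with Cd79b. A unique molecular identifier (UMI, 1 counted RNA molecule) of any of them was in 868 of 3471 droplets of naive B6 mice and in 962 of 7596 droplets of B6 mice immunized with ovalbumin (OVA) and papain in the rear footpads 1 day earlier. Both libraries held live MHCIIhi CD11c+ B220- cells, a gate that takes migratory DCs and leaves out cells stained for B220, an isoform of CD45 on B cells and plasmacytoid DCs. By the study's methods the papain cells came from popliteal nodes and the naive cells from pooled skin-draining nodes, so node site and immunization cannot be told apart. There was 1 library per condition, and the number of pooled mice is not given in the sources used here. No value therefore has a replicate, no test was made, and all 95% intervals (exact Clopper-Pearson for shares, exact Poisson for levels) cover counting error only.

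The B cell receptor is a membrane immunoglobulin bound to a pair of signalling chains. Ighm codes for the constant region of the IgM heavy chain and Igkc for that of the kappa light chain, and Cd79a and Cd79b code for the Ig-alpha and Ig-beta chains that carry the signal into the cell. Ms4a1 codes for CD20, a B cell surface protein, and Pax5 for the transcription factor that keeps cells in the B lineage. A B cell uses all of these genes together, whereas conventional DCs present antigen on MHC class II and are not known for a B cell receptor. Siglech codes for a sialic acid binding receptor.

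Droplets were grouped by the class that the authors assigned from 12 surface antibodies. These classes were CD301b-hi, CD301b-int and CD301b-lo cDC2s, which take up antigen and prime CD4+ T cells, cDC1s, Langerhans cells (LCs), and droplets without a class, here 429 naive and 290 papain. A naive droplet held 3637 to 57378 UMIs with a median of 13764, and a papain droplet 2682 to 57150 with a median of 14738. The libraries shared 2 droplet barcodes. The class labels were checked against defining genes in CPM (UMIs of the gene per 1000000 UMIs of the group). The LC gene Cd207 was at 45.7 and 58.9 CPM in naive and papain LCs and at most at 9.16 CPM in the other DC classes, and the cDC1 gene Xcr1 was at 16.9 and 9.44 CPM in cDC1s, but also at 6.94 CPM in naive CD301b-lo cDC2s. Summed over 5 cDC1 markers, naive CD301b-lo cDC2s (53.6 CPM, of which 42.6 was Wdfy4) were above naive cDC1s (43.0 CPM), so these markers did not separate the classes in naive, whereas in papain the sums were 4.54 and 24.7 CPM. Mgl2, the gene of CD301b, was at 56.1 CPM in naive CD301b-hi and 15.2 CPM in naive CD301b-lo cDC2s, but at 1.21 and 0.831 CPM in the same classes of the papain library.

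Cd79b is described first, and its higher share in CD301b-lo than CD301b-hi cDC2s was the reason for choosing these genes. In the naive library a Cd79b UMI was in 73 of 658 CD301b-lo cDC2s, or 11.1% (95% interval 8.80 to 13.7), against 17 of 707 CD301b-hi cDC2s, or 2.4%. The share was 2.73% in CD301b-int cDC2s, 3.98% in cDC1s and 0.909% in LCs. In papain it was 8.16% (6.81 to 9.68) in 1470 CD301b-lo cDC2s, against 1.11% in 2893 CD301b-hi cDC2s, 2.08% in CD301b-int cDC2s, 1.70% in cDC1s and 1.36% in LCs. In both libraries CD301b-lo cDC2s stood first, and the intervals of the other classes lay below theirs. As a level, Cd79b was at 12.8 CPM in naive CD301b-lo and 2.01 CPM in naive CD301b-hi cDC2s, a log2 ratio of 2.19 (1.70 to 2.66) after adding 1 CPM to both. In papain the levels were 10.0 and 0.672 CPM and the log2 ratio was 2.72 (2.44 to 2.97).

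Cd79b was sparse within the class. Of the 73 naive CD301b-lo droplets that held it, 50 had a single UMI, 17 had 2, and the highest had 13. Of the 120 such papain droplets, 85 had a single UMI and the highest had 11. Droplets of CD301b-lo cDC2s were shallower than those of CD301b-hi cDC2s (median 12751 against 15167 UMIs in naive, 11351 against 16181 in papain). After thinning every droplet to 8392 UMIs the shares were 7.26% against 1.36% in naive and 5.59% against 0.554% in papain. Droplets without a class that held a T cell UMI (Cd3e or Trac) were set beside the classes, since T cells do not use Cd79b. They also held DC RNA: summed migratory DC markers were at 2467 CPM in naive and 1807 CPM in papain. They are thus no clean measure of RNA from outside the cell. These T cell droplets held Cd79b in 4.64% of 237 naive and 3.32% of 241 papain droplets, at median depths of 7626 and 6980 UMIs. The CD301b-hi, CD301b-int, cDC1 and LC shares were below these. Those class shares are not read as expression of Cd79b, and their source was not tested. The naive CD301b-lo share was above that of the T cell droplets (95% interval 2.34% to 8.15%), by level too (12.8 against 6.03 CPM) and after thinning (7.26% against 5.01%, over the 86 T cell droplets that were deep enough). Without CD301b-lo droplets that held another B cell member, however, it was 6.69%, inside the interval of the T cell droplets. Such droplets were not left out of the T cell side, so this comparison is unlike and does not set the order. In papain the order is not set either: the CD301b-lo share was the higher one, but the T cell droplets were at 11.8 CPM, with 15 of their 22 UMIs in 1 droplet, and at 8.49% after thinning, over the 63 that were deep enough. Droplets with neither a class nor a T cell UMI held Cd79b in 10.9% of 192 naive (6.90 to 16.2) and 16.3% of 49 papain droplets (7.32 to 29.7).

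**Figure D1:**
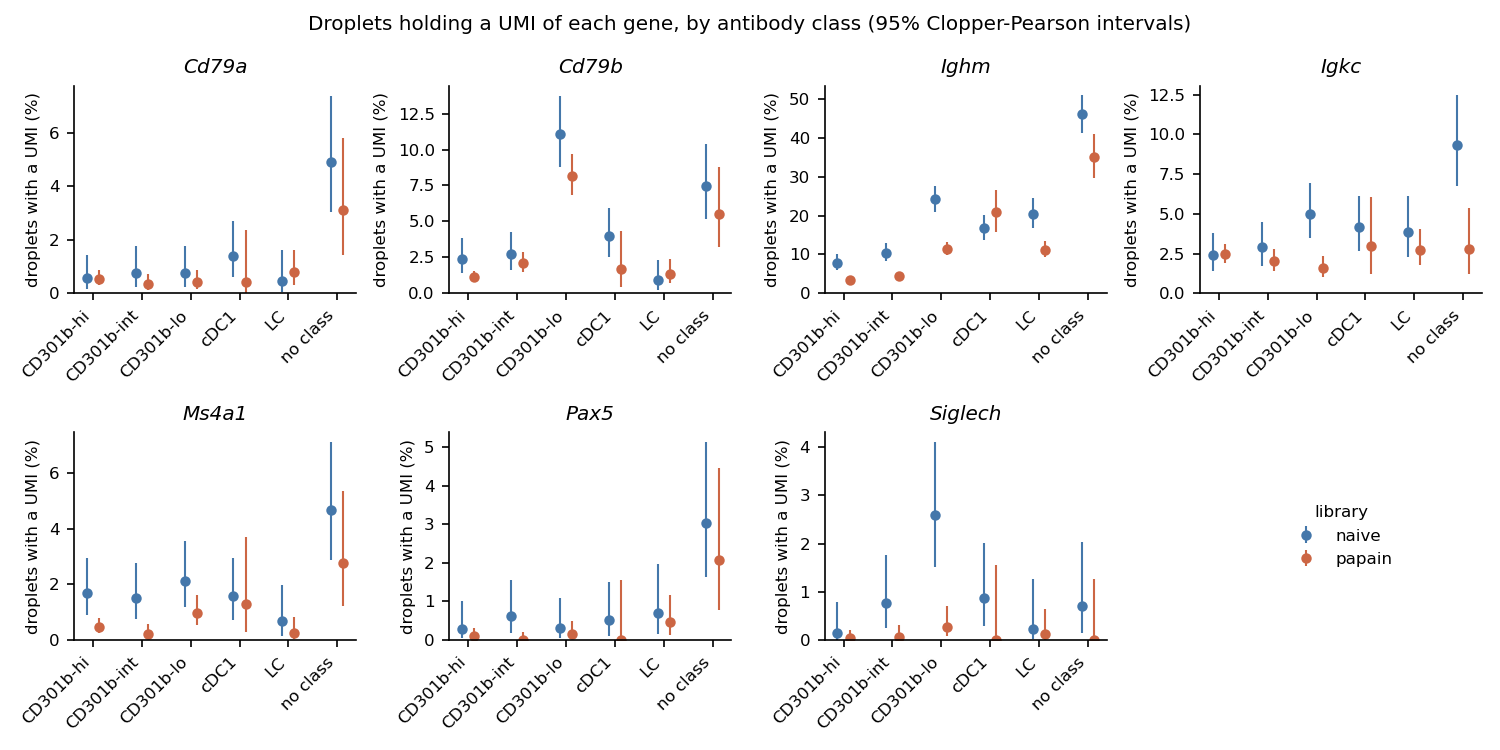
Share of droplets with a UMI of each of the 7 genes (y axis, percent) by antibody class and in droplets without a class (x axis), for the naive (blue) and papain (orange) libraries; points are shares and bars are 95% Clopper-Pearson intervals. Among the DC classes Cd79b was highest in CD301b-lo cDC2s (11.1% and 8.16%), whereas over all groups shown Cd79a, Ms4a1 and Pax5 were highest in droplets without a class, and the y axes differ between genes.

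Ighm was the most widespread member and did not keep to CD301b-lo cDC2s. In the naive library it was in 24.2% of CD301b-lo cDC2s, 20.5% of LCs, 16.8% of cDC1s, 10.5% of CD301b-int and 7.78% of CD301b-hi cDC2s. In papain cDC1s came first with 20.9%, followed by CD301b-lo cDC2s with 11.4%, LCs with 11.2%, CD301b-int cDC2s with 4.43% and CD301b-hi cDC2s with 3.49%. The intervals of CD301b-lo cDC2s and LCs overlapped in both libraries, so the order of these neighbours is not set. The levels in CD301b-lo and CD301b-hi cDC2s were 43.3 and 8.06 CPM in naive (log2 ratio 2.29, 1.99 to 2.60) and 16.1 and 2.99 CPM in papain (log2 ratio 2.10, 1.86 to 2.34). Droplets without a class that held a T cell UMI had Ighm more often than any DC class, in 55.7% of the naive and in 35.3% of the papain ones. They also held DC RNA and do not set a background. No DC class is read as expressing Ighm from its share. The T cell droplets held 0.0430 Igkc UMIs per Ighm UMI in naive and 0.190 in papain, against 0.568 and 0.402 over the DC classes. In droplets with neither a class nor a T cell UMI there were 1.91 and 3.45, so the proportion of the chains was not the same throughout. Where the Ighm UMIs of the T cell droplets came from was not tested.

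Ighm and Cd79b did not stand in a fixed proportion. For each Cd79b UMI there were 3.39 Ighm UMIs (2.75 to 4.2) in naive CD301b-lo cDC2s, 7.30 (5.06 to 10.9) in cDC1s and 21.0 (9.94 to 53.1) in LCs. In the papain library there were 1.61 (1.33 to 1.95) in CD301b-lo cDC2s and 17.6 (7.26 to 55.5) in cDC1s. CD301b-lo cDC2s therefore held the fewest Ighm UMIs per Cd79b UMI of any DC class in either library, with intervals that overlapped those of the other cDC2 classes in naive.

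The partner chain of Cd79b was nearly absent from DCs. Cd79a was in 4 CD301b-hi, 5 CD301b-int and 5 CD301b-lo cDC2s, 8 cDC1s and 2 LCs of the naive library, and in 15, 6, 6, 1 and 7 of these droplets in the papain library. Per Cd79b UMI there were 0.229 Cd79a UMIs (0.145 to 0.350) in naive and 0.122 (0.0743 to 0.190) in papain CD301b-lo cDC2s. In droplets without a class and without a T cell UMI the same ratio was 2.68 (2.0 to 3.64) in naive and 1.76 (1.18 to 2.64) in papain. The pair was thus unequal in CD301b-lo cDC2s, beyond the counting error of independent UMIs in both libraries. The 27 naive Cd79a UMIs were in 5 droplets, and UMIs of 1 droplet are not independent. In UMIs the direction was opposite to that in droplets with neither a class nor a T cell UMI. By droplets the pair was equal there in naive, each gene being in 21 of 192. The unequal pair was not particular to CD301b-lo cDC2s: CD301b-int cDC2s had 0.394 (0.190 to 0.769) in naive and 0.146 (0.0508 to 0.347) in papain. The intervals of CD301b-hi cDC2s reached past equality, at 0.609 (0.290 to 1.23) and 0.647 (0.361 to 1.14). T cell droplets without a class had 0 (up to 0.301) and 0.727 (0.357 to 1.45).

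Igkc, Ms4a1 and Pax5 were in few droplets. Igkc was in 33 of 658 naive CD301b-lo cDC2s, and 5 of these droplets held 78.9% of its 323 UMIs, the highest holding 130. In the papain library 23 of 1470 CD301b-lo cDC2s held 107 Igkc UMIs, and the shares of droplets ran from 1.56% to 2.98% over the DC classes, lowest in CD301b-lo cDC2s. Ms4a1 was in 14 CD301b-lo cDC2s of either library (2.13% of naive and 0.952% of papain). Pax5 was in 2 CD301b-lo cDC2s of either library, and in none of the 1827 papain CD301b-int cDC2s, which allows a share of up to 0.164% by 3 counts and 0.202% by the exact interval.

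Siglech gave little sign of plasmacytoid DCs. It was in 17 of 658 naive CD301b-lo cDC2s (2.58%, 1.51 to 4.10), where no droplet held more than 5 UMIs. It was also in 5 naive cDC1s, where a single droplet held 45 of the 54 UMIs, in 5 CD301b-int cDC2s, and in a single CD301b-hi cDC2 and a single LC. In the papain library 7 UMIs were found over all DC classes, 4 of them in CD301b-lo cDC2s, and 0 of 235 cDC1s held it, which allows a share of up to 1.28% by 3 counts and 1.56% by the exact interval. Only 3 naive droplets and no papain droplet of CD301b-lo cDC2s held Siglech and Cd79b together. Of 11 plasmacytoid DC markers 10 were listed, with a summed level of 430 CPM in naive CD301b-lo against 278 CPM in CD301b-hi cDC2s and of 535 against 441 CPM in papain. Most of these levels came from Bst2 and Tcf4, which other DCs also use.

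Droplets that held several of the B cell members were rare, and made up a larger share of droplets without a class than of the DC classes. UMIs of 3 or more of the 6 B cell members were in 21 of 192 naive droplets without a class and without a T cell UMI (10.9%), and in 8 of 49 such papain droplets (16.3%). They were shallow, with medians of 4922 and 4559 UMIs. Among droplets with a DC class 22 of 3042 naive (0.723%) and 9 of 7306 papain (0.123%) did so, 9 and 5 of them CD301b-lo cDC2s. In CD301b-lo cDC2s these few droplets held 100% and 86.4% of the Cd79a UMIs and 78.6% and 69.2% of the Igkc UMIs. They held only 23.7% and 6.63% of the Cd79b UMIs.

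Within the authors' mRNA clusters Cd79b was concentrated. In the naive library 44 of 246 droplets of cluster 1.5 (17.9%, 13.3 to 23.3) and 10 of 50 of cluster 1.7 (20%, 10.0 to 33.7) held it, against 2.08% to 5.86% in clusters 1.1 to 1.4 and 0 of 55 in cluster 1.6. Cluster 2.4 led the papain library with 86 of 671 droplets (12.8%), against 0.541% in cluster 2.2 and at most 5.07% in the others. The CD301b-lo share was above the CD301b-hi share in clusters 1.1 to 1.5, 2.1 and 2.3 to 2.8, but not in clusters 2.2 and 2.9. CD301b-lo cDC2s of cluster 1.1 held Cd79b in 8.57% and CD301b-hi cDC2s of the same cluster in 2.10%, and in cluster 2.4 the shares were 14.0% and 8.0%, with few CD301b-hi cDC2s (50). Ighm followed the same clusters, with 39.8% in cluster 1.5, 66.0% in cluster 1.7 and 15.8% in cluster 2.4. Cluster 2.9 held Ighm in 14.4% but Cd79b in 3.70% of its droplets.

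**Figure D2:**
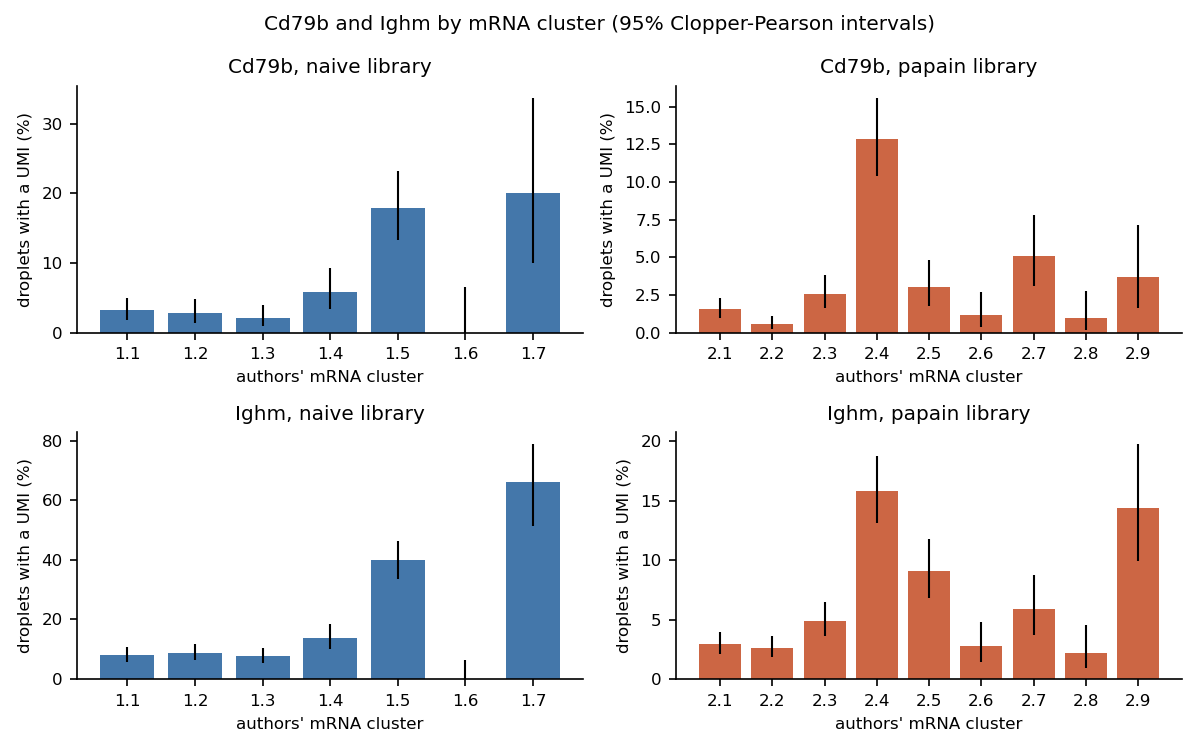
Share of droplets with a Cd79b (top) or Ighm (bottom) UMI (y axis, percent) in each of the authors' mRNA clusters of at least 50 droplets (x axis), naive library left and papain library right; bars are shares with 95% Clopper-Pearson intervals. Cd79b rose to 17.9% in cluster 1.5 and 20% in cluster 1.7 of the naive library and to 12.8% in cluster 2.4 of the papain library.

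To ask which genes went with Cd79b, CD301b-lo cDC2s with a Cd79b UMI (73 naive, 120 papain) were set against those without (585 and 1350). Their median depths were 13076 against 12747 UMIs in naive and 10321 against 11488 in papain. Among the members, Ighm was the one that went with Cd79b across many droplets: it was in 35 of 73 Cd79b-holding droplets (47.9%, 36.1 to 60.0) against 21.2% (18.0 to 24.7) of the others in naive, and in 25.8% (18.3 to 34.6) against 10.1% (8.52 to 11.8) in papain. Igkc, Ms4a1 and Cd79a were in fewer droplets, but their odds of being held differed more with Cd79b than those of Ighm in both libraries. Igkc was in 12 and 7 of the Cd79b-holding droplets (16.4% against 3.59% of the others in naive, 5.83% against 1.19% in papain). Ms4a1 was in 7 and 3 (9.59% against 1.20% and 2.5% against 0.815%), Cd79a in 4 and 3 (5.48% against 0.171% and 2.5% against 0.222%) and Pax5 in none. In 56 of the 73 naive (76.7%) and 110 of the 120 papain droplets (91.7%) there was no Cd79a, Igkc, Ms4a1 or Pax5 UMI and no UMI of the complement genes C1qa, C1qb and C1qc.

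Ranked by summed CPM, the genes with the highest ratio in both libraries rested on few droplets. A gene was counted as higher or lower where its log2 ratio was 1 or more in either direction, and only genes that reached 20 CPM on the higher side were considered. Of all genes, 3.61% were higher and 2.01% lower in Cd79b-holding droplets of the naive library, 2.62% and 0.76% in the papain library, and 0.701% (34 of 4847) and 0.351% (17) in both. Among the 10 highest in both were C1qa, C1qb, Igkc, C1qc, Apoe, Clec4n, Ly6e, Tgfbi and Cd7. C1qa, which codes for a chain of complement C1q made by macrophages, was at 106 against 1.36 CPM in naive, but in 3 of 73 droplets, and 1 droplet held 95.1% of its UMIs. In papain it was in 2 of 120 droplets. All C1qc UMIs of the naive Cd79b-holding droplets were in 1 droplet. Without the droplet with most UMIs of each gene, a choice made after seeing the data, 12 of the 34 genes remained higher, and Apoe, Tgfbi, Clec4n and the C1q genes were not among them, some because their level fell under 20 CPM. Ly6e, Cd7 and Igkc were among the 12, with log2 ratios above 1 in both libraries. C1qa, Clec4n and Tgfbi also kept log2 ratios above 1 in both libraries and were lost only through the limit of 20 CPM. The log2 ratio fell below 1 for Apoe in papain and for C1qb and C1qc in naive.

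**Figure D3:**
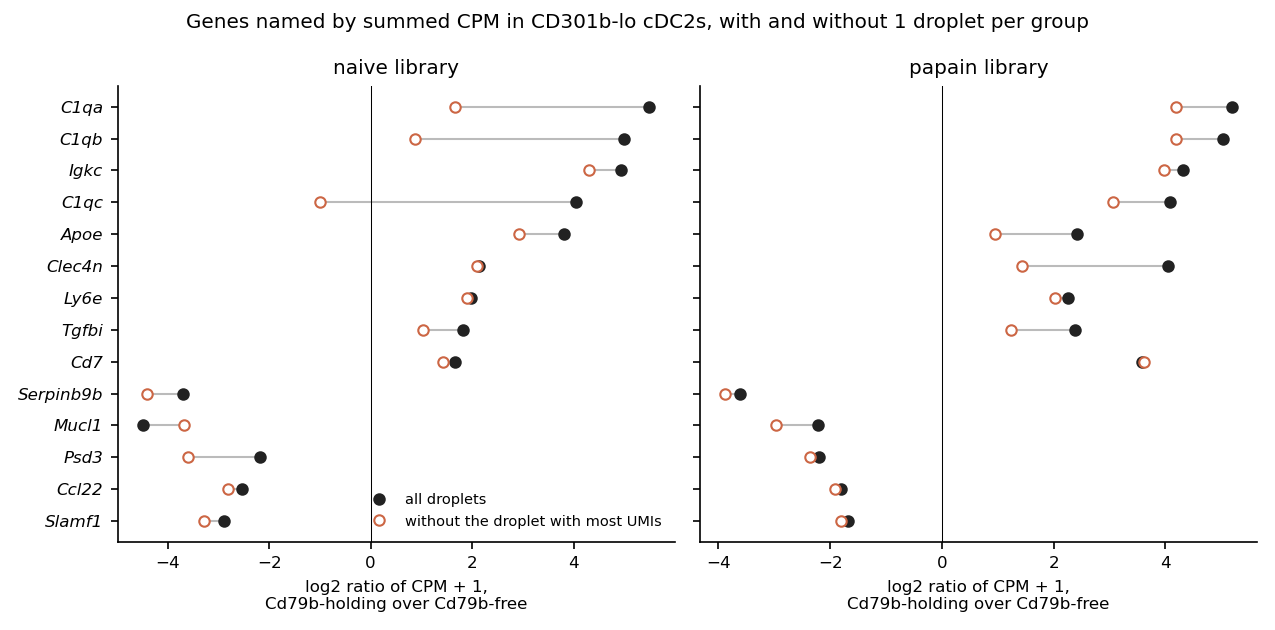
Log2 ratio of CPM + 1 (x axis) between CD301b-lo cDC2s with and without a Cd79b UMI for 9 of the 10 highest genes and the 5 lowest genes by ratio in both libraries (1 line each), from all droplets (filled points) and without the droplet with most UMIs of the gene in each group (open points). C1qc in the naive library went from 4.06 to -0.99, while Ly6e stayed at 1.98 and 1.91.

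The genes were therefore also ranked by the share of droplets that held them, again after seeing the data. This used the odds of holding a gene in Cd79b-holding against Cd79b-free CD301b-lo cDC2s, over 6700 genes whose larger share lay between 10% and 90% in both libraries. A log2 odds ratio of 1 or more was seen for 5.79% of these genes upward and 2.4% downward in naive, for 1.91% and 2.45% in papain, and for 0.91% (61 genes) and 0.687% (46 genes) in both. The 15 genes with the highest smaller value of the libraries are named here as a description. They were Ly6e, Sema4d, Prkcb, Ighm, Ms4a4c, Hfe, Ccr6, Ciita, Cd7, Ms4a6c, Gpm6b, Nudt22, Nrgn, Cd53 and Ms4a6b.

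Ly6e, a glycolipid-anchored protein of the Ly6 family, led the list. It was in 34 of 73 Cd79b-holding naive droplets (46.6%, 34.8 to 58.6) against 15.4% (12.6 to 18.6) of the others, and in 40 of 120 papain droplets (33.3%, 25 to 42.5) against 10.1% (8.59 to 11.9). Over the whole class Ly6e was in 18.8% of CD301b-lo and 4.67% of CD301b-hi cDC2s in naive, and in 12% and 3.87% in papain. Cd7, an immunoglobulin superfamily protein of lymphoid cells, was in 23.3% against 9.57% in naive and in 10.0% against 1.33% in papain. The CD20 family had 3 members on the list: Ms4a4c was in 30.1% against 9.57% and in 20.8% against 7.93%, Ms4a6c in 31.5% against 13.8% and in 15.8% against 4.81%, and Ms4a6b in 23.3% against 10.3% and in 13.3% against 4.67%. Each was more frequent than Ms4a1 itself.

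Further genes of the list differ in their known roles. Hfe, a class I-like regulator of iron uptake, was in 39.7% against 17.9% in naive and in 17.5% against 6.30% in papain. Nrgn, a calmodulin-binding protein known from neurons, was in 13.7% against 5.47% and in 10% against 3.48%. Prkcb, the protein kinase C beta that acts downstream of the B cell receptor, was in 43.8% against 19.5% in naive and in 13.3% against 3.48% in papain. Sema4d, a semaphorin of lymphocytes, was in 37.0% against 13.7% and in 12.5% against 3.48%. Ccr6, the receptor for CCL20, was in 21.9% against 8.72% and in 15% against 5.41%. Ciita, the master activator of MHC class II genes, was in 47.9% against 23.9% and in 39.2% against 15.8%. Class II genes, looked at once Ciita had been seen, did not all reach a log2 ratio of 1. H2-Ab1 was at 5927 against 3151 CPM in naive (log2 ratio 0.91) and 3608 against 1339 CPM in papain (1.43). H2-DMa, a chain of the peptide exchange factor, was at 457 against 221 CPM (1.04) and 257 against 93.8 CPM (1.44). Cd74, the invariant chain, was at 15229 against 9977 CPM (0.61) and 12197 against 6914 CPM (0.82), past the threshold in neither library.

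**Figure D4:**
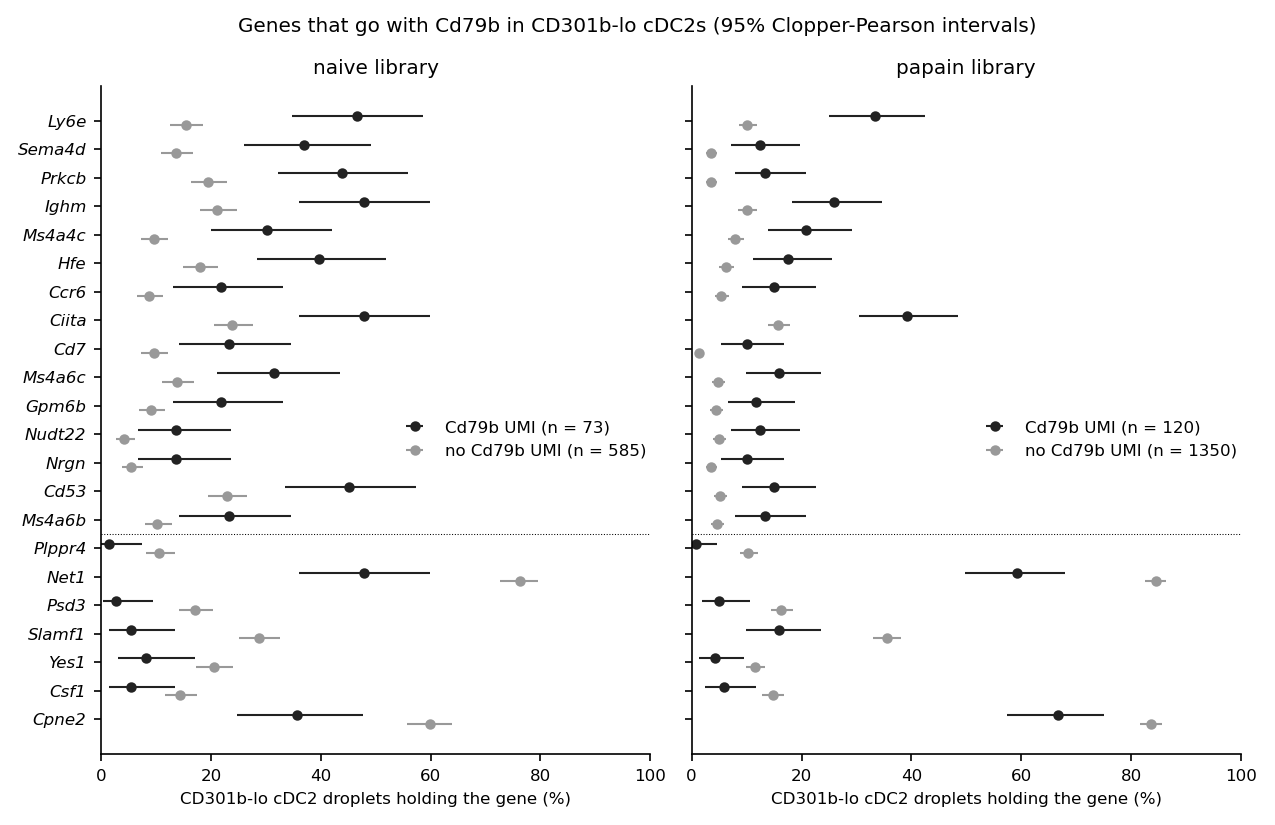
Share of CD301b-lo cDC2s holding each gene (x axis, percent) among droplets with a Cd79b UMI (black) and without (grey), naive library left and papain library right, for the 15 genes with the highest odds ratio (above the dotted line) and 7 of the 8 with the lowest (below); bars are 95% Clopper-Pearson intervals. Ly6e stood at 46.6% against 15.4% in naive and at 33.3% against 10.1% in papain, and Net1 at 47.9% against 76.2% and 59.2% against 84.5%.

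The 8 genes at the other end included Plppr4, Net1, Psd3, Slamf1, Yes1, Csf1 and Cpne2. Slamf1, a costimulatory receptor of activated DCs and T cells, was in 4 of 73 Cd79b-holding naive droplets (5.48%) against 28.7% of the others, and in 15.8% against 35.5% in papain. Net1, a guanine nucleotide exchange factor, was in 47.9% against 76.2% and in 59.2% against 84.5%. By summed CPM the 5 lowest were Serpinb9b, Mucl1, Psd3, Ccl22 and Slamf1. Mucl1 was not lower by share: it was in 1.37% against 1.20% of droplets in naive and in 3.33% against 2.96% in papain. Its 329 UMIs in naive Cd79b-free droplets were in 7 of 585. Ccl22, a chemokine of mature migratory DCs that draws CCR4+ T cells, was at 243 against 1419 CPM in naive and 423 against 1480 CPM in papain.

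The 15 genes were also described in subsets of the same CD301b-lo droplets, which is no independent check, since the genes had been chosen on these droplets. Among CD301b-lo cDC2s with no Cd79a, Igkc, Ms4a1, Pax5 or C1q UMI, which kept 56 of the 73 and 110 of the 120 Cd79b-holding droplets, Ly6e was in 39.3% against 13.8% in naive and 30.0% against 9.92% in papain. In droplets without Ighm, Ly6e was in 21.1% of only 38 Cd79b-holding against 8.46% of 461 other droplets in naive. In papain it was in 27.0% of 89 against 8.15% of 1214. Within cluster 1.5 the median log2 odds ratio of the 15 genes was 0.66, against 1.89 in the other CD301b-lo droplets of the naive library. Within cluster 2.4 it was 1.11, against 2.67 outside it. Ly6e was in 71.0% of 31 Cd79b-holding and 51.8% of 112 Cd79b-free CD301b-lo droplets of cluster 1.5. The authors' clusters were made from the same RNA, so these values are not independent of the genes.

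Ly6e was also looked at in classes that the ranking had not used, where few droplets held Cd79b. In naive cDC1s Ly6e was in 14 of 23 Cd79b-holding droplets (60.9%, 38.5 to 80.3) against 18.7% (15.6 to 22.2) of the others. In papain CD301b-hi cDC2s it was in 5 of 32 (15.6%, 5.28 to 32.8) against 3.74% (3.07 to 4.50). In CD301b-int cDC2s it was in 4 of 18 naive droplets (22.2%) against 6.71% and in 6 of 38 papain droplets (15.8%) against 5.31%, with intervals that overlapped. The Cd79b-holding droplets were deeper in all of these groups (17168 against 15798 UMIs in naive cDC1s and 18521 against 16175 in papain CD301b-hi cDC2s), and the part of depth in these values was not tested. Naive CD301b-hi cDC2s (17 Cd79b-holding droplets), papain cDC1s (4) and LCs (4 naive and 12 papain) are not given. Ly6e was the leading gene, and the others varied. In naive CD301b-int and papain CD301b-hi cDC2s 14 of the 15 had log2 odds ratios above 0 with Cd79b. The median over all 6700 ranked genes was also above 0 there, at 0.49 and 0.28. In each class 14 of the 15 were above that median, and the medians of the 15 were 1.90 and 1.31. The lowest of the 15 were at -0.88 and -0.61.

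Promoters of 3 of these genes held the octamer ATGCAAAT, a sequence known from immunoglobulin gene promoters and bound by POU factors, and are shown for that reason. They are from RefSeq (GRCm38.p6), run 5′ to 3′ on the strand of the gene from 250 bases before to 50 after its start, and carry the octamer or its reverse complement ATTTGCAT in capitals. Those of Prkcb (chr7:122288875-122289174, plus strand), Ms4a4c (chr19:11407411-11407710, plus strand) and Ccr6 (chr17:8235793-8236092, plus strand, the first of 2 starts) read as follows.
Prkcb: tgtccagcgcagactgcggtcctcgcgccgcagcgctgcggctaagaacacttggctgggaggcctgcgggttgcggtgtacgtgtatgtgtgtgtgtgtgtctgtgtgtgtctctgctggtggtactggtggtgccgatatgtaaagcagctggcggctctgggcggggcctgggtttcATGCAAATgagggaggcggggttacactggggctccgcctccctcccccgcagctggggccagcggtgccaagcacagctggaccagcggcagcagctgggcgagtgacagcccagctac
Ms4a4c: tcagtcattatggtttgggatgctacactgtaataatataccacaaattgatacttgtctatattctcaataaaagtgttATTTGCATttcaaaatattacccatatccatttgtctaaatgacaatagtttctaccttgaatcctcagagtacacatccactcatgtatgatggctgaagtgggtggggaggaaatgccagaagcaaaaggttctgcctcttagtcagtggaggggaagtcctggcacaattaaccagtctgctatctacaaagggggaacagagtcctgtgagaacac
Ccr6: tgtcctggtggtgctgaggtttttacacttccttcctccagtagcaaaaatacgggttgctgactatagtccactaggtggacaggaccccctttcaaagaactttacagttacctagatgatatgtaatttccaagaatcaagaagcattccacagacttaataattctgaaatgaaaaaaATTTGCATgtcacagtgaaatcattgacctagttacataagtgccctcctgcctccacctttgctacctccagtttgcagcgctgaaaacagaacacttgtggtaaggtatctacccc
The octamer began 70 bases before the start in Prkcb, 170 in Ms4a4c and 68 in Ccr6. Of the 15 genes 11 were in the promoter table, and 3 of these held it on either strand, while none of 6 of the 8 lower genes did. Over all promoters of this length 1.74% held it, and 1.97% of genes. Of the 7 listed genes 3 were in the promoter table, and these entries, of Cd79a, Pax5 and Siglech, did not hold it. Cd79b, Ighm, Igkc and Ms4a1 had no entry and were not looked at, and a match describes the sequence only.

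Surface antibodies gave small differences. Deposited values are on a natural log scale. Among CD301b-lo cDC2s the median CD301b value was 0.233 (quartiles 0.124 to 0.381) with a Cd79b UMI and 0.306 (0.152 to 0.530) without in naive, and 0.253 (0.159 to 0.377) and 0.331 (0.197 to 0.521) in papain. CD11c, an integrin chain of DCs, was at a median of 2.80 against 2.28 in naive and 2.50 against 2.25 in papain, with quartile ranges that overlapped. CD8a was lower in median with Cd79b (0.599 against 0.678 in naive, 0.289 against 0.412 in papain).

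Other genes of the B lineage gave mixed values, set here beside all genes tested. Between CD301b-lo and CD301b-hi cDC2s, 2.54% of genes were higher and 0.841% lower in naive, and 0.878% and 0.859% in papain, with medians of 0.04 and -0.01 on the log2 scale. None of the 6 tested receptor signalling genes (of 10: Blk, Btk, Lyn, Syk, Blnk, Plcg2, Bank1, Pik3ap1, Dapp1, Cd81) passed a log2 ratio of 1 either way in this comparison, with list medians of -0.09 in naive and -0.14 in papain. Of 7 transcription factors, Bcl11a was higher in naive (37.2 against 10.4 CPM, 1 of 3 tested), and none of 2 tested passed in papain. With Cd79b, 1 of 7 tested signalling genes (Pik3ap1) was higher and 1 (Blnk) lower in naive, and 0 and 2 of 6 (Blnk and Cd81) in papain, with list medians of 0.24 and -0.11 beside 0.07 and 0.03 over all genes. Blnk, the adaptor between the receptor and its kinases, was at 24.2 against 58.3 CPM in naive and 25 against 51.3 CPM in papain, and Lyn, a kinase of the receptor that DCs also use, at 75.3 against 44.2 and 55.6 against 32.7 CPM.

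Of 10 B cell surface genes 2 were tested with Cd79b in naive, of which Ly6d was higher (4 droplets), and 1 in papain, which was not. Of the transcription factors 1 of 4 tested was higher in naive and 1 of 3 in papain, in both cases Ebf1, an early B cell factor. By share it was not higher in naive, where it was in 7 of 73 Cd79b-holding droplets (9.59%) against 12.8% of the others, and in papain it was in 6 of 120 (5.0%) against 1.19%. Spib, a factor of B cells and DCs, was in 50.7% against 30.8% and in 55.0% against 40.7%. Of 9 further immunoglobulin genes 4 were listed, of which Iglc2 was tested in naive and was higher (4 droplets) and none was tested in papain, and of 5 plasma cell genes none of the 2 tested was higher in either library. The summed level of 8 B cell markers was 112.5 against 13.8 CPM in naive and 66.3 against 3.36 CPM in papain, with Pax5 at 0 in the Cd79b-holding droplets of both libraries. Summed monocyte and macrophage markers were at 1708 against 585 and 709 against 49.2 CPM (Lyz2 made up most of them), T cell markers at 101 against 52.2 and 7.84 against 16 CPM, and migratory DC markers at 3662 against 6611 and 6339 against 7818 CPM. The 5 cDC1 markers summed to 116 against 44.7 and 19.3 against 3.30 CPM, mostly Wdfy4, with Tlr3 at 0 in the naive and Xcr1, Clec9a and Tlr3 at 0 in the papain Cd79b-holding droplets. Plasmacytoid DC markers summed to 685 against 393 and 549.8 against 533 CPM, and the cell cycle genes Mki67 and Top2a to 160.1 against 57.1 and 23.5 against 42.6 CPM. Their part in the Cd79b values was not tested.

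As a description over groups that share libraries and depth, the genes whose level followed Cd79b most closely were found by Pearson correlation of log2(CPM + 1). Over the 10 classes of both libraries these were Mef2c (r = 0.909), Gpr65 (0.909), Plac8 (0.884), Ms4a4c (0.870) and Sema4d (0.865). Over 16 clusters they were Ighm (0.954), Plcb4 (0.945), Crtc3 (0.921), Mef2c (0.895) and Itgb7 (0.888). Cluster 1.7 of the naive library, with 50 droplets, had the highest level of Ighm, Plcb4, Crtc3 and Itgb7, and 12% of its droplets held Cd79a and 20% Igkc. Ms4a4c and Sema4d were thus also among the 15 genes ranked within CD301b-lo cDC2s.

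Between the libraries the members differed unevenly. Cd79b in CD301b-lo cDC2s was at 10.0 CPM in papain and 12.8 CPM in naive, a log2 ratio of -0.32 (-0.64 to -0.0036), and in CD301b-hi cDC2s the log2 ratio was -0.85 (-1.29 to -0.39). Ighm was lower in papain in CD301b-lo cDC2s (-1.37, -1.59 to -1.16) and LCs (-1.77, -2.09 to -1.45) but not in cDC1s (0.17, -0.19 to 0.51). Igkc in CD301b-lo cDC2s was lower by a log2 ratio of -2.38, from 323 UMIs in naive, 130 of them in 1 droplet. With 1 library on each side these differences compare the libraries, which also differ in node site and in the number of droplets without a class.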

How the data were processed

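Single-cell RNA and antibody tag libraries (10x 3' v3) of MHCIIhi CD11c+ B220- cells, 1 naive and 1 papain, were analysed. Per the labels, the authors used Cell Ranger 3.0.1, Partek and build mm10. The authors deposited expression as log2 values of CPM plus 1 per droplet, from which UMIs were recovered, and every value up to 50 UMIs (100%) was a whole number to 0.02 of a UMI. Deposited numbers of expressed genes and antibody totals are counts. The deposited antibody values are natural log (ln) values relative to the geometric mean over 12 antibodies. The authors' antibody classes, T cell labels (a Cd3e or Trac UMI) and mRNA clusters were used as deposited, doublets were not called here, and no columns of other samples were present (0).

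Members and lists were chosen with earlier results of these data known. CPM were summed per group, 1 CPM was added for log2 ratios, and their intervals came from the exact binomial split of the UMIs. Odds of holding a gene were computed after adding 0.5 to each count of droplets. The genes named by level were the 10 highest and 5 lowest by the smaller or larger ratio of the libraries, among genes with at least 20 CPM, and the profile genes the 5 highest r. A few genes that these rules chose are not reported here. The ranking by odds (15 and 8 genes) and the removal of single droplets were added after seeing the data. Intervals are at 95%, and floors use 3 counts. Ratios were tested on simulated sums of independent UMIs. These had no droplets, so the test does not cover genes with most UMIs in 1 droplet. Alternatives changed 1 choice at a time: at least 2 UMIs, thinning to 8392 UMIs (the 10th percentile), droplets with T cell or other B cell UMIs left out, the deepest 5% left out, the pseudocount, the scaling and the mean over droplets. With 1 library per group, sampling error between mice is not covered, and UMIs of 1 droplet are not independent. The software was Python 3.11.15, numpy 2.4.6, pandas 2.3.3 and scipy 1.17.1.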

Additional observations from a re-analysis of the deposited data

How the results depend on the processing

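No paired analysis was possible because each condition is 1 library and the labels give no replicate numbers. For the shares and ratios of Cd79b and Ighm, 34 recomputed values lay inside the 95% interval given in the text and 20 outside it. None of the ratios changed direction, which a share cannot do. Requiring at least 2 UMIs lowered the Cd79b share in CD301b-lo cDC2s to 3.50% in naive and 2.38% in papain, that in CD301b-hi cDC2s to 0.566% and 0.0691%, and the Ighm share over all DC classes to 6.71% and 2.03%. Thinning gave 7.26% and 5.59%, 1.36% and 0.554%, and 11.1% and 4.01% for the same shares. Leaving out droplets with another B cell member gave a Cd79b share of 6.69% in both naive and papain CD301b-lo cDC2s, and a papain log2 ratio of 2.35. Adding 10 CPM gave log2 ratios of 0.92 and 0.91 for Cd79b and of 1.56 and 1.01 for Ighm, and the mean over droplets gave 2.34 for Ighm in papain.

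Of alternatives added after seeing the data, the genes higher with Cd79b in both libraries numbered 34 as reported, 12 without the droplet with most UMIs of the gene, 18 without droplets holding a C1q, Cd79a, Igkc, Ms4a1 or Pax5 UMI, and 61 by the odds of holding the gene. The genes lower numbered 17, 29 without the top droplet and 46 by the odds. Without the top droplet the log2 ratio of C1qc in naive turned to -0.99, since all its UMIs were in that droplet. Depth limits these values: most positive droplets hold 1 UMI, so a droplet without a Cd79b UMI may still come from a cell that has Cd79b RNA.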
